A study of Mus musculus with 24 samples.

Results

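The transcripts of the mouse mitochondrial genome were followed in the inguinal white fat depot, which lies below the skin of the groin, with mt-Nd4, mt-Co1, mt-Rnr1 and mt-Rnr2 as the 4 named members and every other symbol that begins with mt- reported beside them. The deposited table of counts per gene held 24 of the 37 genes that the GENCODE M21 annotation of build GRCm38 places on the mitochondrial chromosome, out of 17541 genes in all. The table itself gave a symbol for 8 of them, all mRNAs and with mt-Nd4 and mt-Co1 among them. The other 16, which included mt-Rnr1 and mt-Rnr2, were matched by their Ensembl identifiers. The set comprised 8 of 13 mRNAs, both rRNAs and 14 of 22 tRNAs, and the other 13 genes were not analysed here.

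All mice were C57BL/6J WT animals on a high-fat diet. The Aged BAM15 group held 5 mice and the Aged CTRL group 6 mice, all of 92 weeks. The Young BAM15 group held 6 mice and the Young CTRL group 7 mice, all of 16 weeks. The compound BAM15 uncouples mitochondrial respiration from ATP synthesis. The labels give no dose. Each library came from a separate mouse and was made from total RNA of the homogenised depot with the QuantSeq kit, which reads the 3′ ends of polyadenylated transcripts. Such bulk samples cannot tell fewer cells of a type apart from less RNA per cell.

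The mitochondrial genome is a small circle that is transcribed from both strands into long precursors. Enzymes cut the precursors at the tRNAs that lie between most genes, which releases rRNAs of the mitochondrial ribosome, mRNAs for subunits of the respiratory chain, and the tRNAs. The mRNAs and rRNAs receive short 3′ tails of A, which also complete the stop codon of several mRNAs. White adipocytes hold fewer mitochondria than brown or beige adipocytes. An uncoupler dissipates the proton gradient that the respiratory chain builds.

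The ends of the 4 transcripts are shown because the kit counts reads near a tail of A. The lines give the last 60 bases of each annotated gene, 5′ to 3′, from the GENCODE M21 transcripts in build GRCm38. All 4 lie on the + strand. mt-Rnr1 and mt-Rnr2 encode the small and the large rRNA of the mitochondrial ribosome. mt-Co1 encodes the catalytic subunit of complex IV, and mt-Nd4 encodes a subunit of the proton-pumping arm of complex I. Capitals would mark a run of at least 5 A, and none of these 4 ends holds one.
mt-Nd4 at chrM:11485-11544: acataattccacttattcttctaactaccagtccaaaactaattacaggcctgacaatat
mt-Co1 at chrM:6813-6872: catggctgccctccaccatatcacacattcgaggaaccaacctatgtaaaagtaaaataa
mt-Rnr1 at chrM:965-1024: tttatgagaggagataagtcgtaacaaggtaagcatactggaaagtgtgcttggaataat
mt-Rnr2 at chrM:2616-2675: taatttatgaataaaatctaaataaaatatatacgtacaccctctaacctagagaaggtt

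Inside the genes, runs of A are further places where a primer made of T could bind. The lines give the longest run of A in each gene with 20 bases on each side. Capitals mark every run of at least 5 A, so the mt-Rnr2 line shows a shorter run beside its longest one.
mt-Nd4 at chrM:10207-10253: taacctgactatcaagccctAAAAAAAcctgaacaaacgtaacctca
mt-Co1 at chrM:6096-6142: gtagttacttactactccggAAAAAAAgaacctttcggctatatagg
mt-Rnr1 at chrM:685-729: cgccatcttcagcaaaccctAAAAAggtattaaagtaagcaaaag
mt-Rnr2 at chrM:1468-1514: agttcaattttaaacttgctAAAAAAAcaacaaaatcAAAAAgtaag
Runs of at least 6 A number 4 in mt-Rnr2, 2 in mt-Nd4 and 1 in mt-Co1, and mt-Rnr1 has none. The longest run is 7 A in mt-Nd4, mt-Co1 and mt-Rnr2 and 5 A in mt-Rnr1. Where the reads of each gene lay is not in the count table, so the part of internal priming in the counts was not tested.

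The members also differ in how much of their sequence recurs in nuclear transcripts, since a read that fits more than 1 place may be dropped or shared out when genes are counted. Of all stretches of 50 bases in the annotated gene, 62.2% recur in nuclear transcripts of GENCODE M21 for mt-Nd4 and 51.1% for mt-Co1, against 1.04% for mt-Rnr2 and 0 for mt-Rnr1. Over the last 200 bases, where the kit reads, the share is 0 for mt-Nd4, mt-Rnr1 and mt-Rnr2 and 100% for mt-Co1. The copies of mt-Co1 include the pseudogene Gm13340 on chromosome 2, which had 5276 counts over all libraries against 352971 for mt-Co1. The counts of mt-Co1 are therefore uncertain. So are those of mt-Nd3, a complex I subunit with 98.0% over its last 200 bases, and of mt-Nd2, another complex I subunit with 53.0%. The last 200 bases of mt-Nd1, mt-Nd5, mt-Nd6 and mt-Cytb share none. Among the mRNAs that were not analysed here, mt-Co2, mt-Atp6, mt-Co3 and mt-Nd4l have 98.8 to 100% of their stretches in nuclear transcripts, while mt-Atp8 has none. Nuclear sequence outside the annotated transcripts was not searched, so a share of 0 does not mean that no nuclear copy exists.

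**Figure D1:**
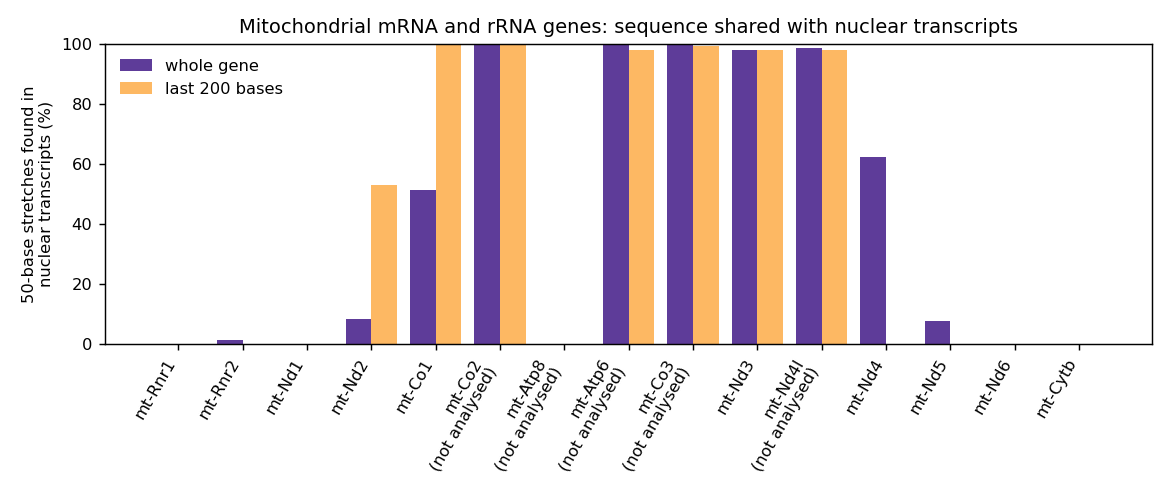
Percent of the 50-base stretches of each mitochondrial mRNA and rRNA gene that recur in nuclear transcripts, over the whole gene and over its last 200 bases, in genome order. mt-Co1 reaches 100% over its last 200 bases, and mt-Nd4, mt-Rnr1 and mt-Rnr2 stand at 0 there.

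Library totals ran from 8.62 to 21.9 M counts, and 4 libraries stood apart in the mitochondrial transcripts. In Aged BAM15 2, Aged BAM15 5, Aged CTRL 2 and Young CTRL 4, mt-Rnr2 held under 0.5% of counts. The nearest libraries on either side of this limit were Aged BAM15 5 at 0.257% and Aged BAM15 3 at 0.722%. These 4 libraries were also the deepest, with 18.4 to 21.9 M counts against 8.62 to 17.9 M in the other 20. The group comparisons of the mitochondrial genes were made with all libraries and without these 4, which leaves 3 Aged BAM15, 5 Aged CTRL, 6 Young BAM15 and 6 Young CTRL mice.

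Levels are first given as the percent of a library's counts. The half-width of the 95% Wilson interval, which covers counting error only, was at most 2.30% of the value for mt-Co1 in any library and less for the other 3 members.

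mt-Rnr2 held 1.22, 0.166, 0.722, 1.30 and 0.257% of counts in Aged BAM15 mice 1 to 5. It ranged from 0.201 to 1.77% with a median of 1.30% in Aged CTRL. It ranged from 0.985 to 2.03% with a median of 1.38% in Young BAM15 and from 0.121 to 2.26% with a median of 1.62% in Young CTRL. All groups overlapped, and each group other than Young BAM15 held at least 1 of the 4 low libraries.

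mt-Rnr1 held 0.328, 0.0791, 0.175, 0.276 and 0.140% of counts in the Aged BAM15 mice. It ranged from 0.104 to 0.516% with a median of 0.311% in Aged CTRL. It ranged from 0.295 to 0.567% with a median of 0.339% in Young BAM15 and from 0.0690 to 0.539% with a median of 0.448% in Young CTRL. The same 4 libraries had its lowest shares, at 0.0690 to 0.140% against 0.175 to 0.567% in the other 20.

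mt-Nd4 ran the other way. It held 2.68, 12.1, 2.45, 1.84 and 10.1% of counts in the Aged BAM15 mice. It ranged from 0.905 to 7.52% with a median of 1.38% in Aged CTRL. It ranged from 1.24 to 2.42% with a median of 1.72% in Young BAM15 and from 1.49 to 6.16% with a median of 1.68% in Young CTRL. The 4 libraries with low mt-Rnr2 had the highest shares, at 6.16 to 12.1% against 0.905 to 2.72% in the other 20.

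mt-Co1 held 0.105, 0.0720, 0.104, 0.104 and 0.0972% of counts in the Aged BAM15 mice. It ranged from 0.0603 to 0.137% with a median of 0.111% in Aged CTRL. It ranged from 0.0741 to 0.179% with a median of 0.103% in Young BAM15 and from 0.0908 to 0.167% with a median of 0.110% in Young CTRL. The shares in the 4 libraries with low mt-Rnr2, 0.0603 to 0.0976%, overlapped those of the others.

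**Figure D2:**
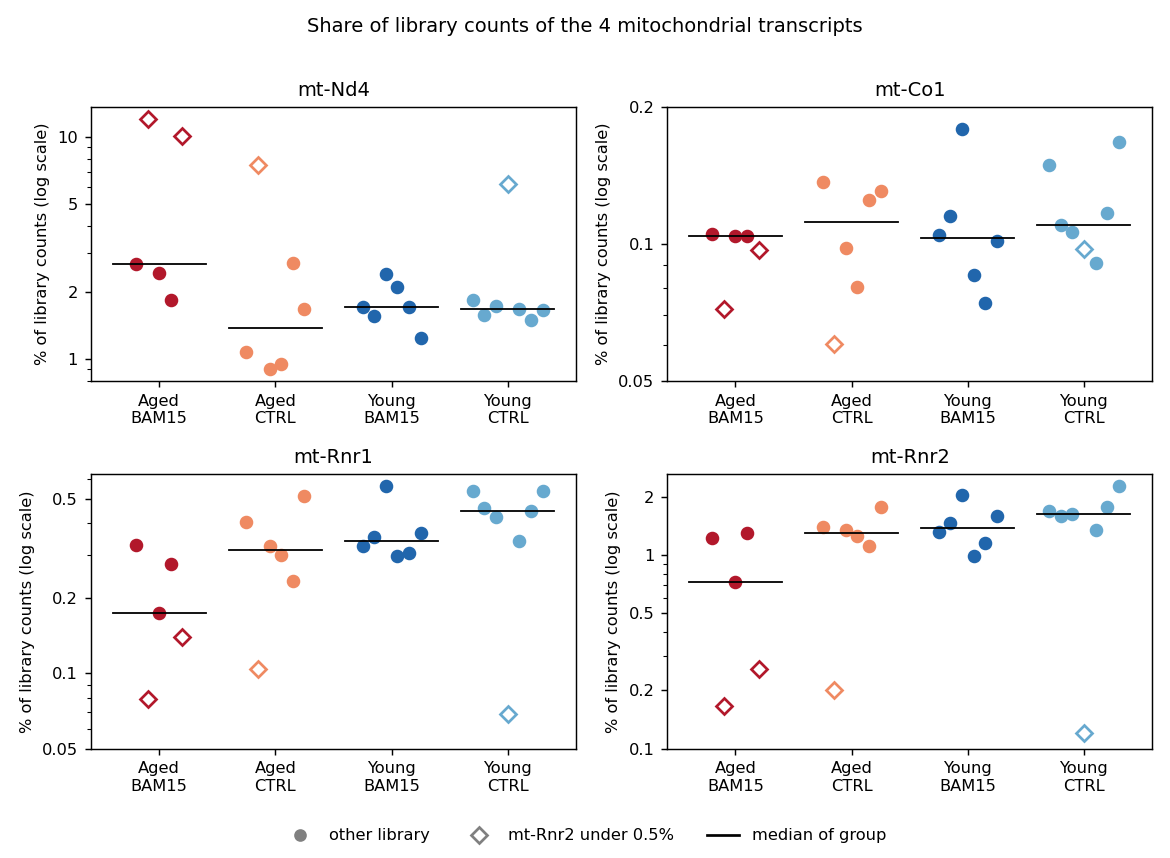
Percent of library counts (log axis) of mt-Nd4, mt-Co1, mt-Rnr1 and mt-Rnr2 in the Aged BAM15, Aged CTRL, Young BAM15 and Young CTRL groups, with 1 point per mouse and a line at the group's median. Open diamonds are the 4 libraries with mt-Rnr2 under 0.5%, which lie above all others for mt-Nd4 and below all others for mt-Rnr1.

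The other mRNAs fell on either side of this pattern. mt-Cytb, the subunit of complex III that the mitochondrion encodes, held 3.75 to 5.89% in the 4 libraries with low mt-Rnr2 and 0.775 to 1.58% in the other 20. mt-Nd1, a subunit of complex I, held 1.25 to 1.99% in these 4 and 0.583 to 1.21% in the others. mt-Nd2, mt-Nd3 and mt-Nd5 overlapped, as did mt-Co1. mt-Nd3 was spread most widely of these, from 0.000107 to 0.00209% in Young BAM15 alone, and its lowest and highest shares over all libraries were 0.000107 and 0.00494%. mt-Nd6, the mRNA encoded on the opposite strand to the others, lay below, at 0.000207 to 0.000247% in these 4 and 0.000256 to 0.000940% in the others. Of the tRNAs, mt-Tl1 and mt-Tc, which carry leucine and cysteine, lay below all other libraries and 12 overlapped. Thus 3 of 8 mRNAs lay above, 1 lay below and 4 overlapped, while both rRNAs lay below. These are descriptions, since the libraries were set apart by mt-Rnr2 itself. The share of all genes that did not overlap between these 4 and the other 20 was not worked out. The counts above therefore have no background to be set against.

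**Figure D3:**
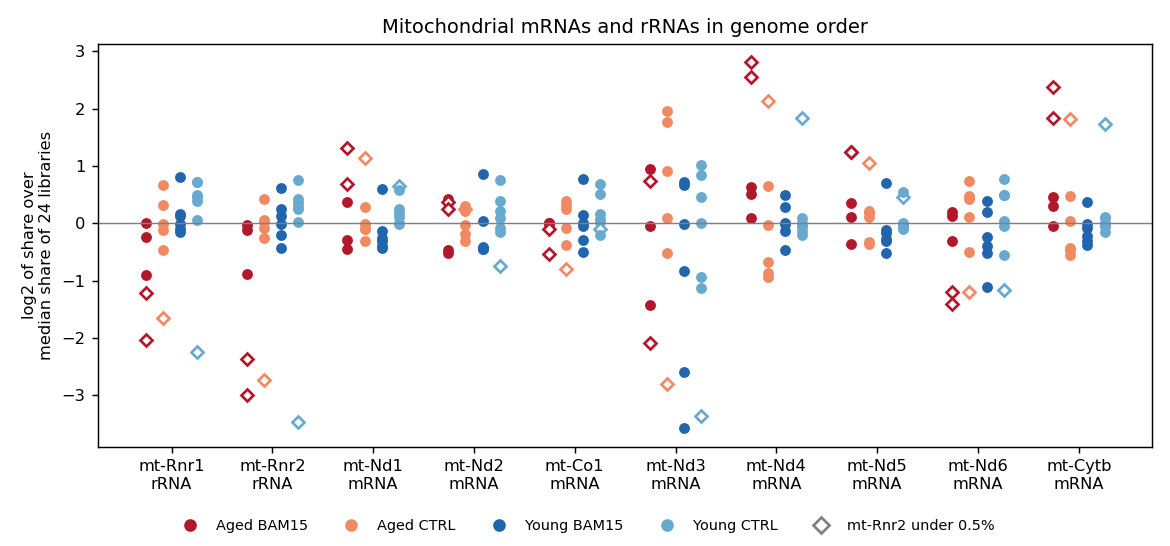
Share of library counts of each mitochondrial mRNA and rRNA, as log2 over the median share of the 24 libraries, in genome order, with 1 point per mouse. Open diamonds are the libraries with mt-Rnr2 under 0.5%, which lie above all others for mt-Nd1, mt-Nd4 and mt-Cytb and below all others for mt-Rnr1, mt-Rnr2 and mt-Nd6.

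Ratios within the mitochondrial genome do not depend on the library total. The count of mt-Nd4 over that of mt-Rnr2 was 37.4 to 72.6 in the 4 libraries and 0.670 to 3.40 in the other 20. mt-Rnr2 over mt-Rnr1 was 1.75 to 2.10 and 3.14 to 4.72 in the same order, so the larger rRNA was lower relative to the smaller one. mt-Nd4 over mt-Cytb was 1.64 to 2.51 and 1.08 to 2.29, which overlapped. Among the 20 libraries, Pearson's r of log2 CPM (counts per M library counts, scaled by TMM factors) was 0.95 between mt-Rnr1 and mt-Rnr2, 0.89 between mt-Nd4 and mt-Cytb and 0.08 between mt-Nd4 and mt-Rnr2. It was 0.89 between mt-Co1 and mt-Nd5. These values describe 20 libraries that share the normalisation of each library and are given without a test.

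Nuclear transcripts differed in the same 4 libraries. Gm42418, annotated as a lincRNA at chr17:39846958-39848788 in GRCm38 on the + strand, lies within the annotated rRNA gene CT010467.1 on the other strand. It held 0.0133 to 0.0810% of counts in these 4 and 6.47 to 16.4% in the other 20. Whether the authors' counting used strand is not given in the sources used here, so reads of Gm42418 and CT010467.1 cannot be told apart. Malat1, a nuclear RNA that ends without a usual poly(A) tail, held 0.0113 to 0.0166% in these 4 and 0.267 to 2.18% in the others. A list of nuclear retained RNAs, with 4 of 5 in the table, summed to 873 to 2063 CPM in these 4 and 3326 to 21391 CPM in the others. Malat1 is on this list, and its other members Neat1, Meg3 and Kcnq1ot1 overlapped between these 4 and the others. A list of RNAs without a poly(A) tail, with 11 of 18 in the table, summed to 756 to 2557 CPM in these 4 and 56618 to 189018 CPM in the others. Gm42418 is on it and made up nearly all of the sum in the others, at 56393 to 188687 CPM, against 151 to 894 CPM in these 4. Gm26917 on that list also lay below, at 2.31 to 8.96 CPM in these 4 and 42.2 to 328 CPM in the others. Apart from Gm42418, Gm26917 and H2bc4, the members of that list overlapped. H2bc4, a histone gene on that list, lay the other way, at 547 to 1645 CPM in these 4 and 92.8 to 483 CPM in the others. The part of library chemistry, RNA quality or depth in the mitochondrial values was not tested.

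**Figure D4:**
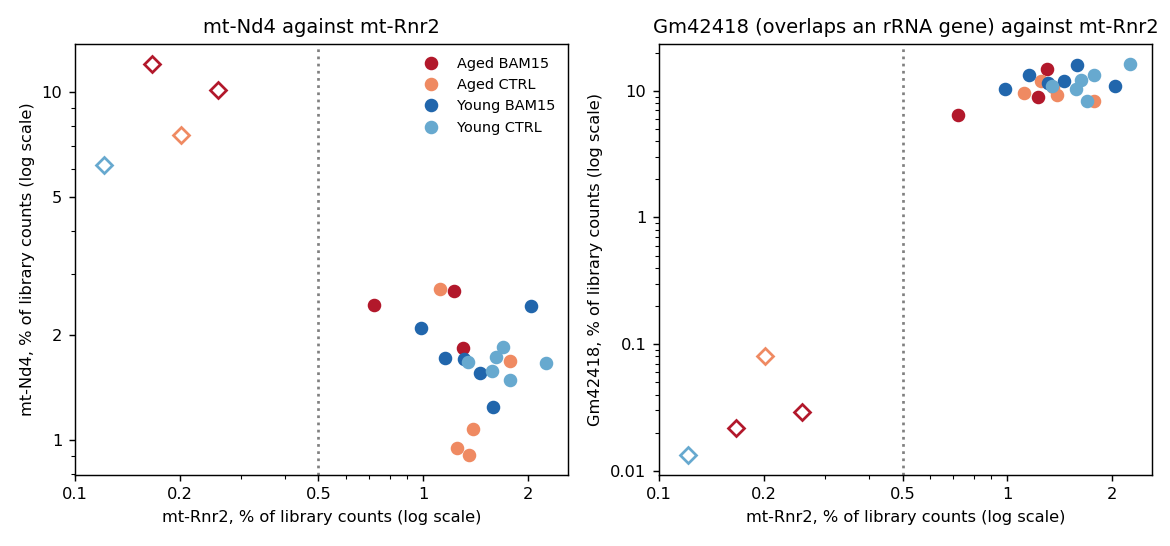
mt-Nd4 (left) and Gm42418 (right) against mt-Rnr2, each as percent of library counts on log axes, with 1 point per mouse coloured by group. Open diamonds are the 4 libraries left of the dotted line at 0.5% mt-Rnr2, with mt-Nd4 at 6.16 to 12.1% and Gm42418 at most 0.0810%.

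The sum of 10 adipocyte markers was 48806 to 98206 CPM in these 4 and 25792 to 78472 CPM in the other 20. The sum of 7 brown or beige adipocyte markers was 76.5 to 306 CPM and 35.2 to 603 CPM in the same order, and the defining marker Ucp1 was at 0 in 8 of 24 libraries and at most 7.76 CPM. Sums of 11 skeletal muscle markers were 25.2 to 5653 CPM and 29.6 to 66144 CPM. Sums of 8 macrophage markers were 994 to 2022 CPM and 481 to 1482 CPM, and those of 8 B cell markers 1.61 to 232 CPM and 1.77 to 1187 CPM. Sums of 4 progenitor markers were 1103 to 2172 CPM and 551 to 1879 CPM. Sums of 4 endothelium markers were 173 to 540 CPM and 210 to 1044 CPM. Sums of 5 red cell markers were 3369 to 44753 CPM and 1434 to 7105 CPM. Skin markers reached 9.59 CPM in these 4 and 1102 CPM in the others, and mammary epithelium markers, of which 4 of 6 were in the table, reached 0.807 and 134 CPM. The ranges of the sums overlapped for each of these lists, but not those of each member. Retn, an adipocyte marker, lay at 1934 to 8805 CPM in these 4 and 512 to 1726 CPM in the others. Hba-a1, a red cell marker, lay at 2.29 to 289 CPM in these 4 and 367 to 1513 CPM in the others.

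Tests of the groups used the quasi-likelihood F-test of edgeR on the raw counts of all genes, with Benjamini-Hochberg adjustment over the 15939 genes kept by a filter on low counts. All 24 mitochondrial genes passed that filter. Calls were made below an adjusted p of 0.05. For the difference among the 4 groups as a whole, 2.47% of all genes were called and none of the 24 mitochondrial genes. mt-Nd4, mt-Tl2 and mt-Cytb had an unadjusted p under 0.05, as did 3173 of all 15939 genes. The adjusted p values of mt-Nd4, mt-Tl2 and mt-Cytb were 0.172, 0.218 and 0.231. With the 4 low libraries left out, 2.93% of 16553 genes were called and again none of the 24. mt-Tl2, the second leucine tRNA, then had an adjusted p of 0.126 and mt-Rnr1 of 0.162. DESeq2 called mt-Nd4 alone with all libraries, where it called 8.61% of all genes, and mt-Rnr1 alone without the 4, where it called 13.1%. Limma-voom was run with a quality weight for each library. With all libraries it called 5 mitochondrial genes (mt-Rnr1, mt-Nd3, mt-Tv, mt-Tl1 and mt-Tl2), where it called 16.7% of all genes. After the 4 low libraries were left out limma-voom called 4 (mt-Rnr1, mt-Tv, mt-Tl1 and mt-Tl2) and 14.7% of all genes. Leaving out Aged CTRL 2 alone, edgeR called mt-Nd4 and 5.2% of all genes.

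Aged BAM15 mice were set against Aged CTRL mice to ask what the uncoupler does in old animals. mt-Nd4 averaged 67434 ± 64404 CPM in Aged BAM15 mice (SD, n = 5), against 26155 ± 29121 CPM in Aged CTRL mice (SD, n = 6). Its log2 change was 1.37 ± 0.63 (SE; edgeR, adjusted p = 0.525) with all libraries and 0.52 ± 0.36 (adjusted p = 0.622) without the 4 with low mt-Rnr2. CPM in Aged BAM15 without those libraries were 21188 ± 4418 (SD, n = 3), against 14764 ± 9322 in Aged CTRL (SD, n = 5). Aged BAM15 2, Aged BAM15 5 and Aged CTRL 2 are the libraries left out here.

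The rRNAs pointed down in this comparison and did not pass the test. mt-Rnr2 averaged 6978 ± 4592 CPM in Aged BAM15 mice (SD, n = 5), against 11443 ± 4957 CPM in Aged CTRL mice (SD, n = 6), with a log2 change of -0.71 ± 0.53 (edgeR, adjusted p = 0.728). It was -0.43 ± 0.30 (adjusted p = 0.628) without the 4 libraries. mt-Rnr1 had a log2 change of -0.63 ± 0.40 (edgeR, adjusted p = 0.670), and -0.53 ± 0.31 (adjusted p = 0.543) without them. mt-Co1, at 985 ± 105 CPM in Aged BAM15 mice (SD, n = 5) against 1040 ± 314 CPM in Aged CTRL mice (SD, n = 6), had a log2 change of -0.08 ± 0.27 (edgeR, adjusted p = 0.960). It was -0.23 ± 0.31 (adjusted p = 0.830) without them.

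Other mRNAs moved with the choice of libraries. The log2 change of mt-Cytb was 1.00 ± 0.54 (edgeR, adjusted p = 0.603) with all libraries and 0.26 ± 0.30 without the 4. Those of mt-Nd1, mt-Nd2 and mt-Nd5 were 0.36, 0.10 and 0.55 with all libraries and -0.14, -0.22 and -0.018 without the 4. mt-Nd3 had -0.73 ± 0.78 (edgeR, adjusted p = 0.827) and -1.07 ± 0.84 (adjusted p = 0.671) on the same scale. The 8 mRNAs were 5 higher and 3 lower with all libraries and 2 higher and 6 lower without.

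All 14 tRNAs had lower fitted values in Aged BAM15 than in Aged CTRL, and none passed the test. Their log2 changes ran from -1.84 to -0.41 with a median of -0.84, against a median of 0.02 over all genes. In the remaining libraries they ran from -2.45 to -0.39 with a median of -1.03. These genes hold few counts: together they made up 0.00394 to 0.0385% of a library, and single genes had 0 to 1685 counts. mt-Tl1 stood at 8.17, 3.72, 3.39, 5.93 and 2.08 CPM in the Aged BAM15 mice. It ranged from 4.06 to 20.2 CPM with a median of 12.8 CPM in Aged CTRL. Its lowest Aged CTRL value was that of Aged CTRL 2, one of the 4 libraries with low mt-Rnr2, and without those libraries the groups did not overlap.

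mt-Tl1 had a log2 change of -1.51 ± 0.57 (edgeR, adjusted p = 0.410) with all libraries and -1.37 ± 0.53 (adjusted p = 0.361) without the 4. mt-Ts2, a serine tRNA, had -1.84 ± 0.74 (edgeR, adjusted p = 0.443) and -2.45 ± 0.86 (adjusted p = 0.333), at 2 to 64 counts per library. mt-Tl2 had -1.0 ± 0.38 (edgeR, adjusted p = 0.410) and -1.10 ± 0.38 (adjusted p = 0.327). mt-Tv, the valine tRNA between both rRNAs, had -1.03 ± 0.44 (edgeR, adjusted p = 0.488) and -1.33 ± 0.49 (adjusted p = 0.355). Outside the 4 low libraries, mt-Tl1 and mt-Ts2 were the 2 of 24 genes whose library shares did not overlap between Aged BAM15 (n = 3) and Aged CTRL (n = 5), against 8.09% of 15939 genes, so this count is near that of all genes. With all libraries all 24 genes overlapped, and 0.596% of all genes did not. The tRNAs adjoin mRNAs and rRNAs in the genome, so reads of an uncut precursor cannot be told apart from those of a free tRNA.

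Malat1, and with it the list of nuclear retained RNAs, differed between the same groups. Outside the 4 low libraries, Malat1 held 1.43 to 1.75% of counts in Aged BAM15 (n = 3) and 0.267 to 0.734% in Aged CTRL (n = 5), without overlap. Among all 15939 genes 8.09% did not overlap in these libraries. The sum of the list of nuclear retained RNAs was 15256 to 17702 CPM in Aged BAM15 and 3326 to 7798 CPM in Aged CTRL. These sums did not overlap either, and Malat1 made up most of them, with 13587 of 15256 CPM in Aged BAM15 1 and 2438 of 3326 CPM in Aged CTRL 3. Over all libraries Meg3 averaged 49.3 CPM in Aged BAM15 and 45.8 CPM in Aged CTRL, Neat1 1553 and 834 CPM, and Kcnq1ot1 138 and 74.1 CPM. With all libraries the list summed to 1602 to 17702 CPM in Aged BAM15 and 873 to 7798 CPM in Aged CTRL, which overlap. The part of this difference in the fitted tRNA, rRNA and mt-Nd4 values of Aged BAM15 was not tested.

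edgeR called none of the 24 genes in this comparison, where it called 0.0% of all genes and 1450 of 15939 had an unadjusted p under 0.05. Among the mitochondrial genes 5 did, and 5 without the 4 libraries, where 1861 of 16553 genes did. DESeq2 called none of the 24 and 0.646% of all genes, and without the 4 low libraries none and 0.828%. Limma-voom called 4 (mt-Tv, mt-Tl1, mt-Tm and mt-Tl2, all lower in Aged BAM15) and 6.06% of all genes. In the other 20 libraries it called 3 (mt-Tv, mt-Tl1 and mt-Tl2) and 6.4%.

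Aged CTRL mice were set against Young CTRL mice to ask how age alters the depot. mt-Rnr1 and mt-Rnr2 had log2 changes of -0.45 ± 0.37 and -0.43 ± 0.49 (edgeR, adjusted p = 0.859 and 0.925). Over the 20 others they were -0.45 ± 0.25 and -0.41 ± 0.25 (adjusted p = 0.539 and 0.578). mt-Co1 had -0.27 ± 0.25 (edgeR, adjusted p = 0.892), and -0.18 ± 0.25 without them. mt-Nd4 had 0.09 ± 0.58 (edgeR, adjusted p = 0.991) and -0.20 ± 0.30 (adjusted p = 0.896), so its sign turned with the libraries. Here Aged CTRL 2 and Young CTRL 4 are the libraries left out, 1 in each group.

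The tRNAs lay the other way from the BAM15 comparison in old mice, which shares the Aged CTRL samples, so both are given side by side. With age 12 of 14 tRNAs were higher and 2 lower, with a median log2 change of 0.45, and 0.32 without the 4 libraries. The median over all genes was -0.04. mt-Tl2 had 0.88 ± 0.34 (edgeR, adjusted p = 0.402) and 0.82 ± 0.30 (adjusted p = 0.279), and it averaged 20.6 ± 8.03 CPM in Aged CTRL mice (SD, n = 6), against 11.2 ± 5.56 CPM in Young CTRL mice (SD, n = 7). edgeR called none of the 24 genes with age, while it called 0.207% of all genes, and 0.477% without the 4 libraries. An unadjusted p under 0.05 was found for 2 of the 24 genes and 1343 of 15939. DESeq2 and limma-voom called none of the 24 either, against 1.12% and 0.91% of all genes. Without the 4 low libraries these tools called none of the 24, against 2.05% and 0.604% of all genes.

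Young BAM15 mice were set against Young CTRL mice to ask what the uncoupler does in young animals. mt-Nd4 averaged 17330 ± 5166 CPM in Young BAM15 mice (SD, n = 6), against 24627 ± 20164 CPM in Young CTRL mice (SD, n = 7), where Young CTRL 4 alone had 70194 CPM. Its log2 change was -0.51 ± 0.58 (edgeR, adjusted p = 0.754) with all libraries and 0.0070 ± 0.29 (adjusted p = 0.995) without the 4. mt-Co1 had -0.23 ± 0.25 (edgeR, adjusted p = 0.734) and -0.27 ± 0.24. mt-Rnr1 had -0.22 ± 0.37 (edgeR, adjusted p = 0.849) and -0.42 ± 0.24, and mt-Rnr2 -0.17 ± 0.48 (edgeR, adjusted p = 0.924) and -0.39 ± 0.24. The 8 mRNAs had lower fitted values in Young BAM15 with all libraries and 7 of 8 without the 4, while 9 of 14 tRNAs were higher with all libraries and 4 of 14 without. The median log2 change over all genes was 0.03 with all libraries and 0.03 without the 4. edgeR called none of the 24 genes and 0.0% of all genes. An unadjusted p under 0.05 was found for 0 of the 24 and 2081 of 15939. DESeq2 and limma-voom called none of the 24 in this comparison, against 1.02% and 3.96% of all genes. In the other 20 libraries they called none of the 24, against 4.13% and 0.701% of all genes.

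The difference between both BAM15 effects, old minus young, was tested as an interaction of BAM15 and age. mt-Nd4 had an interaction of 1.87 ± 0.86 on the log2 scale (edgeR, adjusted p = 0.899), and 0.51 ± 0.46 without the 4 libraries. mt-Rnr1, mt-Rnr2 and mt-Co1 had -0.41 ± 0.54, -0.54 ± 0.71 and 0.15 ± 0.36 with all libraries. In the other 20 libraries they had -0.10 ± 0.39, -0.03 ± 0.38 and 0.04 ± 0.39. All 14 tRNAs were negative, with a median of -1.14, and -1.03 without the 4 libraries. The medians over all genes were -0.04 and -0.0013. The tRNAs come from shared precursors and were counted in the same libraries, so their signs are not independent of each other. edgeR called none of the 24 genes and 0.0% of all genes. An unadjusted p under 0.05 was found for 4 of the 24 and 809 of 15939. DESeq2 and limma-voom called none of the 24, against 0.0125% and 0.0% of all genes. In the other 20 libraries they called none of the 24, against 0.0362% and 0.0% of all genes.

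**Figure D5:**
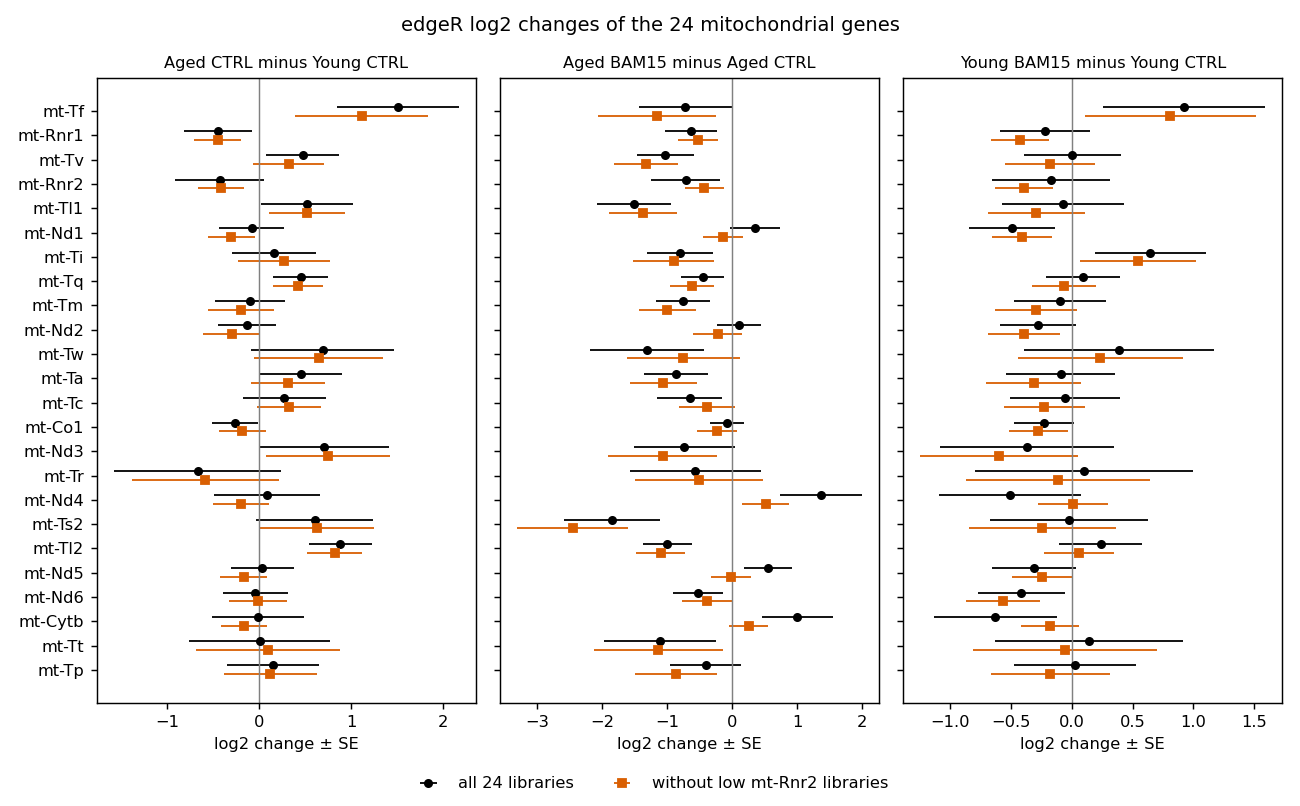
edgeR log2 changes with their SE for the 24 mitochondrial genes in genome order, for age (Aged CTRL minus Young CTRL), BAM15 in old mice (Aged BAM15 minus Aged CTRL) and BAM15 in young mice (Young BAM15 minus Young CTRL), with all 24 libraries (black circles) and with the 20 of higher mt-Rnr2 (orange squares). In Aged BAM15 minus Aged CTRL the tRNAs lie at -1.84 to -0.41 with all libraries, and mt-Nd4 lies at 1.37 with all libraries and 0.52 without the 4.

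The ratio of mt-Nd4 to mt-Rnr2 counts was compared across groups as a description, since mt-Rnr2, its denominator, also set the 4 low libraries apart. With all libraries it averaged 23.8 ± 31.7 in Aged BAM15 mice (SD, n = 5), 7.17 ± 14.8 in Aged CTRL mice (SD, n = 6), 1.33 ± 0.46 in Young BAM15 mice (SD, n = 6) and 8.13 ± 18.9 in Young CTRL mice (SD, n = 7). In the 20 libraries of higher mt-Rnr2 it was 2.19, 3.40 and 1.41 in Aged BAM15 1, 3 and 4, a mean of 2.34 ± 1.00 (SD, n = 3). It was there 1.12 ± 0.75 in Aged CTRL (SD, n = 5), with a range of 0.670 to 2.44, and 1.00 ± 0.18 in Young CTRL mice (SD, n = 6), with a range of 0.737 to 1.25. The highest of these Aged CTRL ratios lay within the Aged BAM15 range, and Young BAM15 overlapped every other group. Aged BAM15 lay above Young CTRL in these 20 libraries without overlap. That pair differs in both age and BAM15 and was not tested, and no share over all genes was worked out for it.

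Nuclear genes that copy, transcribe and process the mitochondrial genome were read beside its transcripts, as a list of 56 genes of which 54 were tested. edgeR called none of the 54 in any comparison with all libraries. An unadjusted p under 0.05 was found for 4 in Aged BAM15 against Aged CTRL, 3 with age and 5 in Young BAM15 against Young CTRL. It was found for 6 each for the interaction and for the difference among the 4 groups. Among all 15939 genes these numbers were 1450, 1343, 2081, 809 and 3173 in the same order. After the 4 low libraries were left out edgeR called 1, Grsf1, for the overall difference (adjusted p = 0.0202), against 2.93% of all genes, so 1 of 54 is not above the share of all genes. Grsf1 binds mitochondrial RNA in the granules where it is processed. There it averaged 36.0 ± 3.92 CPM in Aged BAM15 mice (SD, n = 3), 43.5 ± 6.31 CPM in Aged CTRL mice (SD, n = 5), 33.5 ± 3.66 CPM in Young BAM15 mice (SD, n = 6) and 57.9 ± 14.8 CPM in Young CTRL mice (SD, n = 6). Its log2 change in Young BAM15 against Young CTRL was -0.81 ± 0.16 (edgeR, adjusted p = 0.0663), and -0.80 ± 0.35 (adjusted p = 0.339) with all libraries.

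Lrpprc, which stabilises mitochondrial mRNAs and promotes their polyadenylation, followed mt-Nd4 across libraries. It lay at 184 to 296 CPM in the 4 libraries with low mt-Rnr2 and at 18.2 to 90.9 CPM in the other 20, with no overlap. The share of all genes that did not overlap between these libraries was not worked out. The log2 change of Lrpprc in Aged BAM15 against Aged CTRL was 1.17 ± 0.55 (edgeR, adjusted p = 0.535), and 0.89 ± 0.39 (adjusted p = 0.405) without the 4. Without those libraries it averaged 73.8 ± 18.7 CPM in Aged BAM15 mice (SD, n = 3), against 39.6 ± 24.9 CPM in Aged CTRL mice (SD, n = 5).

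Tfam, which packages mitochondrial DNA and starts its transcription, had a log2 change of 0.35 ± 0.19 in Aged BAM15 against Aged CTRL (edgeR, adjusted p = 0.602) and -0.31 ± 0.17 with age (adjusted p = 0.679). In the other 20 libraries these were 0.43 ± 0.20 and -0.43 ± 0.17 (adjusted p = 0.438 and 0.332). Polrmt, the mitochondrial RNA polymerase, and Tfb2m, its partner at the promoter, had -0.27 ± 0.26 and -0.66 ± 0.78 in Aged BAM15 against Aged CTRL (edgeR, adjusted p = 0.799 and 0.847). Mtpap, the poly(A) polymerase of mitochondria, had -0.08 ± 0.22, and Pnpt1, a nuclease that trims and degrades mitochondrial RNA, had -0.13 ± 0.47 (edgeR, adjusted p = 0.95 and 0.961). Outside the 4 low libraries Polrmt and Tfb2m had 0.09 ± 0.23 and -0.45 ± 0.30, and Mtpap and Pnpt1 had -0.27 ± 0.22 and -0.07 ± 0.38, so the sign of Polrmt turned. None of these 6 genes passed the test in any comparison, with or without the 4 libraries.

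Among 10393 eligible genes outside the mitochondrial genome, the 5 whose log2 CPM followed each member most closely were listed by Pearson's r over the 24 libraries. Since the libraries fall into 4 and 20, the r over the 20 is given too, and all r share the library normalisation and carry no test. For mt-Nd4, Lrpprc had an r of 0.94 over 24 and 0.88 over 20 libraries, which was the highest over the 20. Ndufaf8, an assembly factor of complex I, had 0.95 and 0.83. Pdha1, a subunit of pyruvate dehydrogenase, had 0.94 and 0.58, Hint1 0.94 and 0.62, and Eif4e, which binds mRNA caps, 0.94 and 0.63. For mt-Co1, Zfp106 had 0.81 and 0.80, the nuclear receptor Rora 0.81 and 0.83, Asb8 0.80 and 0.81, Usp47 0.78 and 0.76, and Camta1 0.76 and 0.77.

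For mt-Rnr2, Csnk2a1, the catalytic subunit of casein kinase 2, had an r of 0.97 over 24 and 0.82 over 20 libraries. Spop had 0.95 and 0.77, Stim1 0.95 and 0.62, Dstn 0.94 and 0.58, and Nrbf2 0.94 and 0.48. For mt-Rnr1, Csnk2a1 had 0.91 and 0.70, Stim1 0.88 and 0.56, Spop 0.87 and 0.66, Paip2b 0.87 and 0.64, and Copb1 0.87 and 0.62. The lists of both rRNAs thus share Csnk2a1, Spop and Stim1, and for each gene named for the rRNAs and for mt-Nd4 the r was lower over the 20 libraries.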

How the data were processed

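RNA of 24 inguinal white adipose depots, each from a separate mouse, was sequenced with the QuantSeq kit. The authors deposited whole-number counts for each Ensembl identifier. They also deposited signal values, which equal the counts over 1 size factor per library (largest deviation 6.52e-09 counts). R 3.4.3, DESeq2 1.18.1 and build GRCm38 are named per the submitters' processing notes. The sources used here do not name the aligner, the counter or its strand setting. Each deposited gene has at least 72 counts in total.

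The members and lists were chosen with earlier results of these data known. Counts were tested with edgeR 4.0.16 in R 4.3.3 (TMM factors, filterByExpr, robust glmQLFit, glmQLFTest, 1 coefficient per group), which kept 15939 genes and removed 1602, with 20 residual degrees of freedom (16553 and 16 in the 20 libraries of higher mt-Rnr2). The test was also run on simulated counts. Those had a lower spread than these data, and the same spread in all libraries. They held no libraries that stood apart, so that run does not show how the test behaves here. CPM use the TMM factors, and log2 CPM a prior count of 2. SE is the log2 change over the square root of F. Within groups the chi-square of 2 libraries per gene was 21.1 to 697 over 61 pairs, far above that of a library entered more than once, which is near 1. Replicate numbers only name mice.

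Genes were named by a rule: every symbol beginning mt-, machinery genes called or always shown (Tfam, Polrmt, Tfb2m, Lrpprc, Mtpap and Pnpt1), and 5 genes per member by likeness with a mean of at least 5 CPM. Acta1, CT010467.1, Gm13340, Gm26917, Gm42418, H2bc4, Hba-a1, Kcnq1ot1, Malat1, Meg3, Neat1 and Retn were named after their values were seen. Alternatives were DESeq2 1.42.0, limma-voom with library quality weights (limma 3.58.1), other factors and filters, the replicate block, other mt-Rnr2 limits and each library left out. Sequences came from GENCODE M21 transcripts.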

Additional observations from a re-analysis of the deposited data

Results flagged for a closer look

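For the 4 members, mt-Nd1, mt-Nd2, mt-Nd5, mt-Cytb and the sum of all mitochondrial genes, the highest and lowest library of each group was set against Dixon's 95% critical value. Of 36 sets, which are 9 measures in each of the 4 groups, 16 held a library that far from the others. The measures are linked, since the sum holds all the others and the r of mt-Nd4 and mt-Cytb over the 24 libraries was 0.98. The same libraries recur among the 16, so this number cannot be set against the 1 in 20 for independent sets. All values are percent of library counts.

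Young CTRL 4 stood apart for the sum at 12.0%, mt-Nd4 at 6.16%, mt-Cytb at 3.75%, mt-Rnr1 at 0.0690% and mt-Rnr2 at 0.121%. Aged CTRL 2 stood apart for the sum at 14.6%, mt-Nd4 at 7.52%, mt-Cytb at 3.99%, mt-Nd1 at 1.75% and mt-Nd5 at 0.203%. Aged BAM15 2 stood apart for mt-Co1 at 0.0720%. These 3 libraries are among the 4 with low mt-Rnr2. Aged BAM15 5 is the last of those 4. For mt-Nd4 it held 10.1% and Aged BAM15 2 held 12.1%, against 1.84 to 2.68% in the rest of their group. Dixon's value uses the gap to the nearest library, so 2 libraries that lie apart together hide each other. The lack of a flag there does not mean that they lay near their group.

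Young BAM15 3 is not among those 4. It stood apart for the sum at 9.27%, mt-Nd1 at 1.21%, mt-Nd2 at 1.20%, mt-Nd5 at 0.159% and mt-Rnr1 at 0.567%, each the highest of its group. Acta1, the actin of skeletal muscle, was over 10000 CPM in this library and in Young CTRL 7, and in no other of the 24. Aged CTRL 1 came next at 5891 CPM. The summed tRNA shares of Young CTRL 7 and Young BAM15 3, 0.0385 and 0.0358%, were the highest of the 24 libraries. The part of muscle in the mitochondrial values of these libraries, and in the group comparisons that hold them, was not tested.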

How the results depend on the processing

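The overall difference among the 4 groups called 0 of the 24 mitochondrial genes and kept 0 under other factors and filters. It called 1 with DESeq2 and 5 with limma-voom, 1 and 4 with these tools in the 20 libraries of higher mt-Rnr2, and 0 to 1 when 1 library was left out. For Aged BAM15 minus Aged CTRL, limma-voom called 4, and 3 in the 20 libraries. The list of nuclear machinery genes had 0 called. For the overall difference it had 1 in the 20 libraries and at a limit of 0.3% mt-Rnr2, 3 with DESeq2, 4 with limma-voom, 3 and 5 with these in the 20 libraries, and 0 to 2 when 1 library was left out (2 without Aged BAM15 1, and 1 without Aged BAM15 3, Aged BAM15 4, Aged CTRL 2 or Young CTRL 4). These counts are of 54 genes. Of all genes, DESeq2 called 8.61% and limma-voom 16.7%, and 13.1% and 14.7% in the 20 libraries. For Aged BAM15 minus Aged CTRL that list had 1 called with DESeq2 (0.646% of all genes), and 2 with limma-voom, with all libraries (6.06%) and in the 20 (6.4%). For Young BAM15 minus Young CTRL it had 2 with limma-voom (3.96%) and 2 with DESeq2 in the 20 (4.13%). The causes were not tested.

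Log2 changes whose sign turned are given first as reported, none of them called. In Aged CTRL minus Young CTRL, mt-Nd4 was 0.09. It was -0.20 in the 20 libraries, at the 0.3% and 1% limits and with DESeq2 in the 20, -0.52 with limma-voom, -0.51 with limma-voom in the 20, and -0.74 to 0.62 when 1 library was left out. In Young BAM15 minus Young CTRL, mt-Nd4 was -0.51. It was 0.0070 in the 20 and at 0.3%, 0.00054 with DESeq2 in the 20, and -0.66 to 0.025 when 1 library was left out. There mt-Rnr2 was -0.17, and -0.37 to 0.0053 when 1 was left out. In Aged BAM15 minus Aged CTRL, mt-Co1 was -0.08, and -0.18 to 0.023 when 1 was left out. mt-Nd1 was 0.36. It was -0.14 in the 20 and at 0.3%, -0.020 at 1%, -0.20 with limma-voom, -0.15 with DESeq2 and -0.28 with limma-voom in the 20, and -0.088 to 0.69 when 1 was left out. mt-Nd2 was 0.10. It was -0.22 in the 20 and at 0.3%, -0.034 at 1%, -0.35 with limma-voom, -0.23 with DESeq2 and -0.41 with limma-voom in the 20, and -0.080 to 0.26 when 1 was left out. mt-Nd5 was 0.55. It was -0.018 in the 20 and at 0.3%, -0.012 at 1%, -0.030 with DESeq2 in the 20 and -0.024 with limma-voom in the 20. At the 1% limit the interaction was 0.082 for mt-Rnr1 and 0.13 for mt-Rnr2. Of the other 1378 values, log2 changes kept their direction and their side of the threshold. Counts of genes stayed equal to the reported count or within a fixed factor of it. Shares and ratios moved by less than the pooled SD, within which a sign could turn. When 1 library was left out, log2 mt-Nd4 over mt-Rnr2 differed by -0.81 to 0.88 in Aged CTRL minus Young CTRL. It differed by -0.65 to 0.37 in Young BAM15 minus Young CTRL. The summed share differed by -1.71 to 0.47 percentage points in Aged CTRL minus Young CTRL.

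With the replicate number as a block, 0 of the 24 genes were called in each comparison, and the signs of mt-Nd4 in Aged CTRL minus Young CTRL (-0.40) and mt-Rnr2 in Young BAM15 minus Young CTRL (0.025) turned. Over all genes the block moved the calls for the overall difference to 52, against 393 without it, and the 1% limit gave 178 and the fit without the 2 libraries with Acta1 over 10000 CPM 166. Libraries with the same number correlated in their deviations at a median of -0.04 over 33 pairs, against 0.0043 over 182 other pairs, and 3 of 24 libraries matched their own number best. The numbers therefore only name mice.

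All 14 tRNAs were lower in Aged BAM15 than in Aged CTRL under the alternatives run, except that 13 were when only those 2 groups entered the fit. Low mt-Rnr2 and the greatest depth fall on the same 4 libraries, so both cannot be told apart. DESeq2 and limma-voom without the low libraries and the fit without the 2 libraries with Acta1 over 10000 CPM were chosen after seeing the data.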
